A study of Mus musculus with 4 samples.

Results

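This account follows 41 mouse genes of the G2 phase and of mitosis through the hypertonic response of embryonic fibroblasts. The genes were taken from a fixed list by symbol, and 40 of the 41 had a probe set assigned to 1 gene, out of 19938 genes on the array; Ccnb1, encoding cyclin B1, had none. The cells were MEFs, fibroblasts cultured from mouse embryos, of wild-type and of NFAT5/TonEBP knockout genotype by label. They were not synchronised, and spent 20 hours either in isotonic medium or with NaCl added to reach 450 mosmol/kg. NFAT5, also called TonEBP, is the transcription factor that switches on osmolyte genes in hypertonic medium. Each of the 4 conditions was 1 array hybridised with a pool of 4 samples, so no spread between samples was seen and no statistical test was possible. Embryo age, strain, number of isolates, the deleted part of Nfat5 and the osmolality of isotonic medium were not given in the sources used here.

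Genotype labels are not checked by the Nfat5 probe set. In isotonic medium it read 7.74 in wild-type and 8.03 in knockout cells, and in hypertonic medium 8.19 and 8.24, so the second genotype is called knockout-labelled below. Signals are on the log2 scale as deposited, and where 4 follow each other the order is wild type isotonic and hypertonic, then knockout-labelled isotonic and hypertonic. Correlations between arrays over all probe sets were 0.979 to 0.989. All 11 fibroblast markers passed the dim limit, the median signal of the probe sets with 1 gene (5.38 to 5.44), on every array. None of 4 endothelial and 4 muscle markers did so on any array. Of 6 epithelial markers 2 or 3 passed, of 4 blood markers at most 1, and of 2 neural markers 1, on each array.

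In dividing cells, cyclin A2 and the B cyclins activate the kinase CDK1 to drive entry into mitosis, and the Polo-like and Aurora kinases then build the spindle. Kinetochores tie chromosomes to spindle microtubules while the spindle checkpoint holds back the anaphase-promoting complex (APC/C), which finally destroys the cyclins and lets the cell divide. The mRNAs of these proteins build up together late in the cycle, which is why their level is widely read as a measure of proliferation. Their promoters often hold a cell cycle genes homology region (CHR), bound by the DREAM and MuvB complexes, and CCAAT boxes, bound by NF-Y.

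These promoter elements were more frequent among the members than over all genes, though not every member held them. Promoter windows of 300 bases, 250 before and 50 after a start site, were found in the RefSeq table (build GRCm38.p6) for 33 of the 41 genes. A CHR, searched as TTTGAA or TTCGAA on both strands, lay in at least 1 window of 25 of the 33 genes (75.8%), against 21.7% of 27025 genes in the table. It began within 50 bases of the start site in 69.7% of the members and in 6.12% of all genes. At least 1 CCAAT, on either strand, was found in 72.7% of the members and 41.1% of all genes, and a CHR together with a CCAAT in 63.6% and 9.65%. The windows of Birc5, Melk, Ncaph, Nuf2 and Nusap1 held neither. The G1/S and DNA replication genes, active earlier in the cycle, held a CHR in 23.1% of 26 genes and a CCAAT in 65.4%. A CCAAT and a CHR match can share an end base, and a match is only a match of letters. These are shares in sequence, independent of the arrays.

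**Figure D1:**
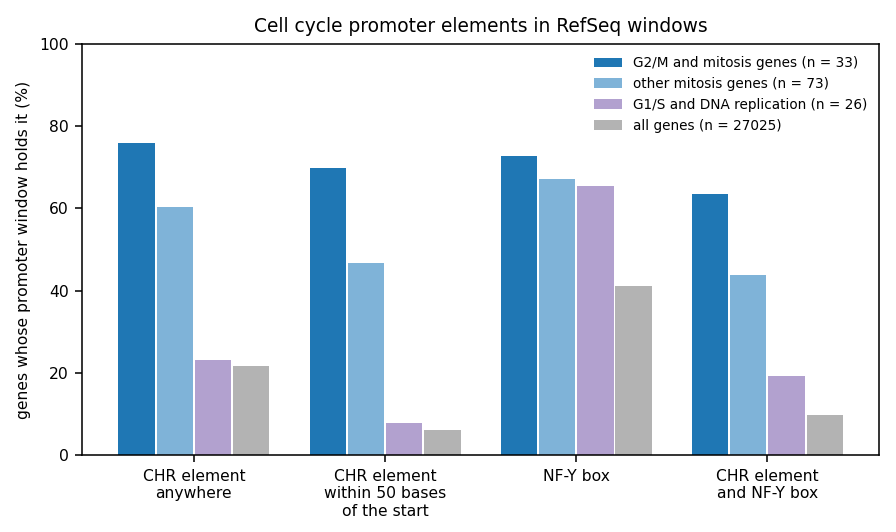
Share of genes (%, from 0) whose RefSeq promoter window of 300 bases holds a CHR element, a CHR element within 50 bases of the start site, a CCAAT box (bound by NF-Y), or both, for 4 sets of genes; n is the number of genes with a window. The bars for the CHR element stand at 75.8% for the G2/M and mitosis genes, 60.3% for other mitosis genes, 23.1% for G1/S and DNA replication genes and 21.7% for all genes.

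The 150 bases before the start site are printed for 7 members, 5' to 3' on the gene's strand, with each CHR and CCAAT match in capitals. Cdk1 (chr10:69352913-69353062, minus strand), Cdc20 (chr4:118437344-118437493, minus), Ube2c (chr2:164769779-164769928, plus), Kif11 (chr19:37376232-37376381, plus) and Ncapg (chr5:45669775-45669924, plus) stand for 4 roles and hold a CHR before the start. Hmmr (chr11:40733438-40733587, minus) and Nek2 (chr1:191821323-191821472, plus) are the 2 members that passed 1.5-fold in the comparisons below.
Cdk1: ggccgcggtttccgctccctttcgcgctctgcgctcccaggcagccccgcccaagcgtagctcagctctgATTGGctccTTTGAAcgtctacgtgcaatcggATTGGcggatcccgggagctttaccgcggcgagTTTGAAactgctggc
Cdc20: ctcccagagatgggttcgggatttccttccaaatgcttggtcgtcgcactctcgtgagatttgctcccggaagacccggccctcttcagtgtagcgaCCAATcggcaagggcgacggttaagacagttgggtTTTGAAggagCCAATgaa
Ube2c: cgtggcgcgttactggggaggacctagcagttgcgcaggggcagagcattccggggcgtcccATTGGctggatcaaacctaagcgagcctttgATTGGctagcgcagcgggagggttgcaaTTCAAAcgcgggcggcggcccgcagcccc
Kif11: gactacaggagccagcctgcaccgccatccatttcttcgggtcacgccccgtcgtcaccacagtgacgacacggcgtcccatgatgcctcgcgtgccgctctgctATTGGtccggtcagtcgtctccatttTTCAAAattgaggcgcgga
Ncapg: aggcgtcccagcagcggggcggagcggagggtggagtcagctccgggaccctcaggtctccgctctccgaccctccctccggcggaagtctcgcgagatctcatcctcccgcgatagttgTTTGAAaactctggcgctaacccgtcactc
Hmmr: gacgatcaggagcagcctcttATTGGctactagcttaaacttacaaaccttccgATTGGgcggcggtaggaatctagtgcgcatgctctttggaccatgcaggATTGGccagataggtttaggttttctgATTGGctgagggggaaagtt
Nek2: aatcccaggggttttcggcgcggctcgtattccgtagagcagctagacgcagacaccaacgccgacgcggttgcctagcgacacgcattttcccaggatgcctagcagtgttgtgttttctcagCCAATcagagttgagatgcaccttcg
Hmmr, with 4 CCAAT matches in this stretch, has its CHR match just past the start site at position 9. In the Nek2 window no CHR match was found, in this stretch or after the start site.

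All 40 members were well expressed. Each passed the dim limit on all 4 arrays, and 37 lay above the 75th percentile of the probe sets with 1 gene on all 4, so none entered a comparison through a difference between arrays. Their signals were also steady: the gap between a member's highest and lowest array had a median of 0.30 on the log2 scale, and for 38 of the 40 it stayed under 1.5-fold (0.585). Over the 10542 genes above the dim limit on any array that gap had a median of 0.49, and 61.2% stayed under 1.5-fold. Over the 5675 genes above the 75th percentile on any array the figures were 0.46 and 65.7%. No member spanned 2-fold, against 13.1% of the 10542 genes. The exceptions to 1.5-fold were Nek2, with a gap of 0.88, and Hmmr, with 0.59.

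**Figure D2:**
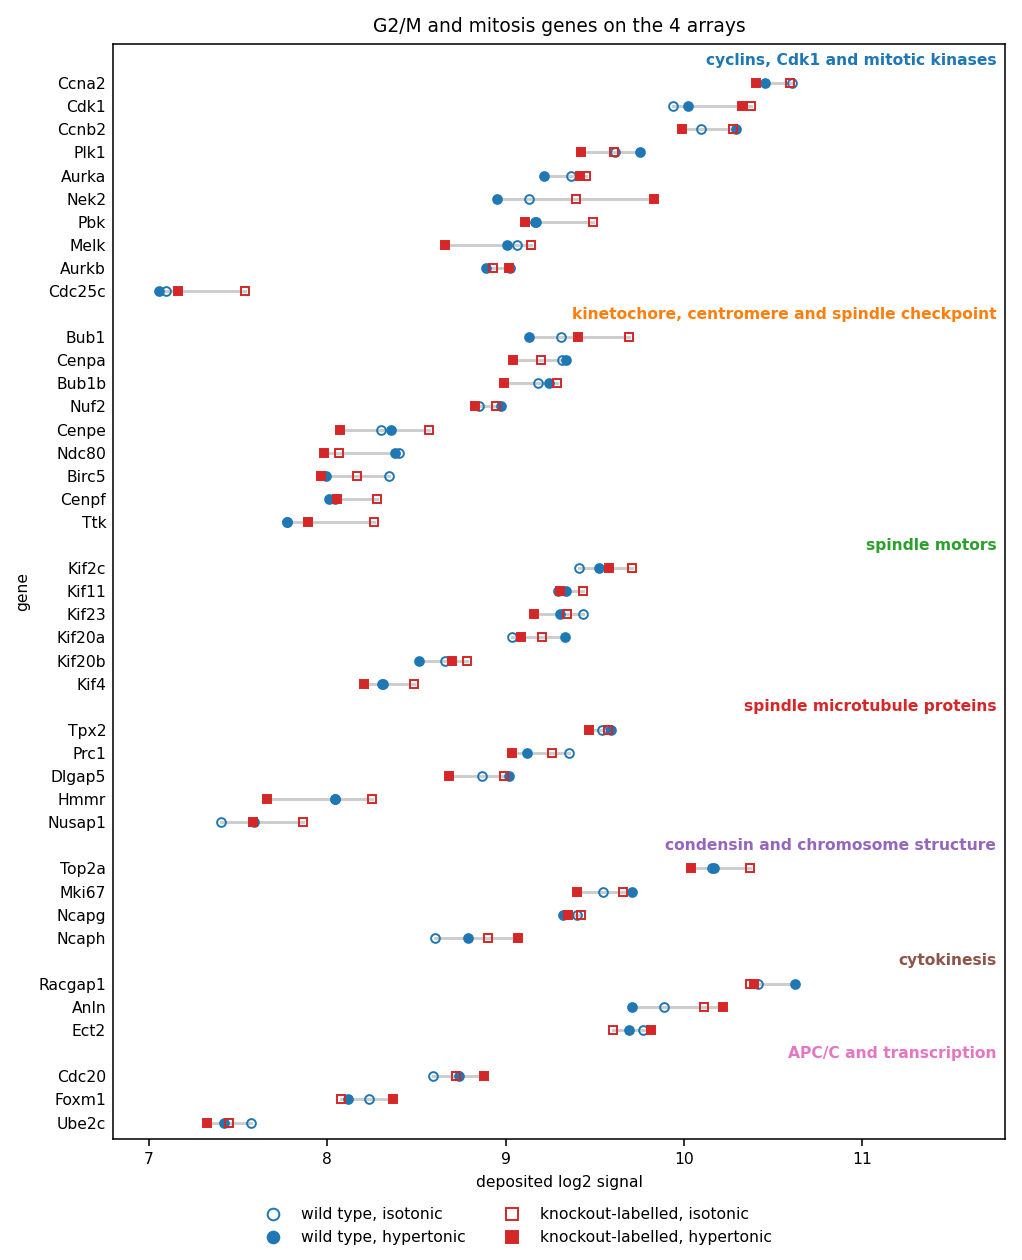
Deposited log2 signal (x axis) of 40 G2/M and mitosis genes (y axis), grouped by role; each row has 1 point per array, and the grey line spans the lowest to the highest. Most rows span less than 0.585 on the log2 scale, and Nek2 has the widest span, with the knockout-labelled hypertonic array at 9.83.

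Hypertonic medium left the mitotic genes of wild-type cells nearly where they were. The median of the 40 log2 differences, hypertonic minus isotonic, was -0.00 (quartiles -0.13 and 0.12), with 19 genes above 0 and 21 below. No member was 1.5-fold higher or lower, where 4.12% of all 10134 measured genes were at least 1.5-fold higher and 3.30% lower. At 2-fold the count of members was also 0, beside 1.01% higher and 0.414% lower of all measured genes. The median over all measured genes was -0.02 (quartiles -0.19 and 0.14). Only 14 members differed by more than 0.15, the SD between probe sets of the same gene in this comparison (441 genes with 2 probe sets), against 54.6% of all measured genes. With few genes past the limit anywhere in this comparison, a count of 0 among 40 is close to the background.

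The range in wild-type cells ran from Birc5 to Kif20a. Birc5, encoding survivin of the chromosomal passenger complex, read 8.35 in isotonic and 7.99 in hypertonic medium, a difference of -0.35. Kif20a, a kinesin needed to complete cell division, read 9.04 and 9.33, a difference of 0.29. These are the lowest and the highest of the 40 differences, and both exceed the SD between probe sets. Top2a, encoding the topoisomerase that untangles chromosomes, read 10.16 and 10.17. Cdk1 read 9.94 and 10.02, and Mki67, the gene of the proliferation marker Ki-67, 9.55 and 9.71. The 3 genes lay within or just past 0.15 of their isotonic signal.

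Knockout-labelled cells showed a slight common downward lean. In them the median difference, hypertonic minus isotonic, was -0.17 (quartiles -0.28 and -0.07), a ratio of 0.889, and 32 of 40 members lay below 0. All 10277 measured genes had a median of -0.09 and 60.1% below 0. No member was 1.5-fold higher (background 4.28%) and 1, Hmmr, was 1.5-fold lower (2.50% of members, background 12.0%). At 2-fold the members' count was 0 in each direction, against 0.379% higher and 3.08% lower of all measured genes. The SD between probe sets was 0.19 here, and 23 members (57.5%) differed by more, next to 61.7% of all measured genes. Quantile normalization moved the median of all genes from -0.09 to 0.01 and that of the members to -0.08, with 28 of 40 still below 0. It also moved the share of higher genes among all calls at 1.5-fold from 26.2% to 43.7%, and centring moved it to 42.0%.

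The lean ran through most roles but not all. All 9 kinetochore, centromere and checkpoint genes, all 6 spindle motors and all 5 spindle microtubule proteins lay below 0 in the knockout-labelled response, with medians of -0.22, -0.13 and -0.28. Of all measured genes 60.1% lay below 0 there. After cyclic loess 27 of 40 members lay below 0. Ndc80 (0.01), Kif20b (0.01), Cdk1 (0.03), Aurka (0.06) and Ncapg (0.02) then also lay above 0. Among cyclins, Cdk1 and mitotic kinases 8 of 10 lay below 0 (median -0.19). The 3 cytokinesis genes lay above 0 (median 0.10), as did 2 of the 3 APC/C and transcription genes. Condensin and chromosome genes had 3 of 4 below 0 (median -0.17). In wild-type cells the medians of the 7 roles lay between -0.12 and 0.09. In bulk RNA, fewer cells in G2 and mitosis and less mRNA per such cell cannot be told apart.

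**Figure D3:**
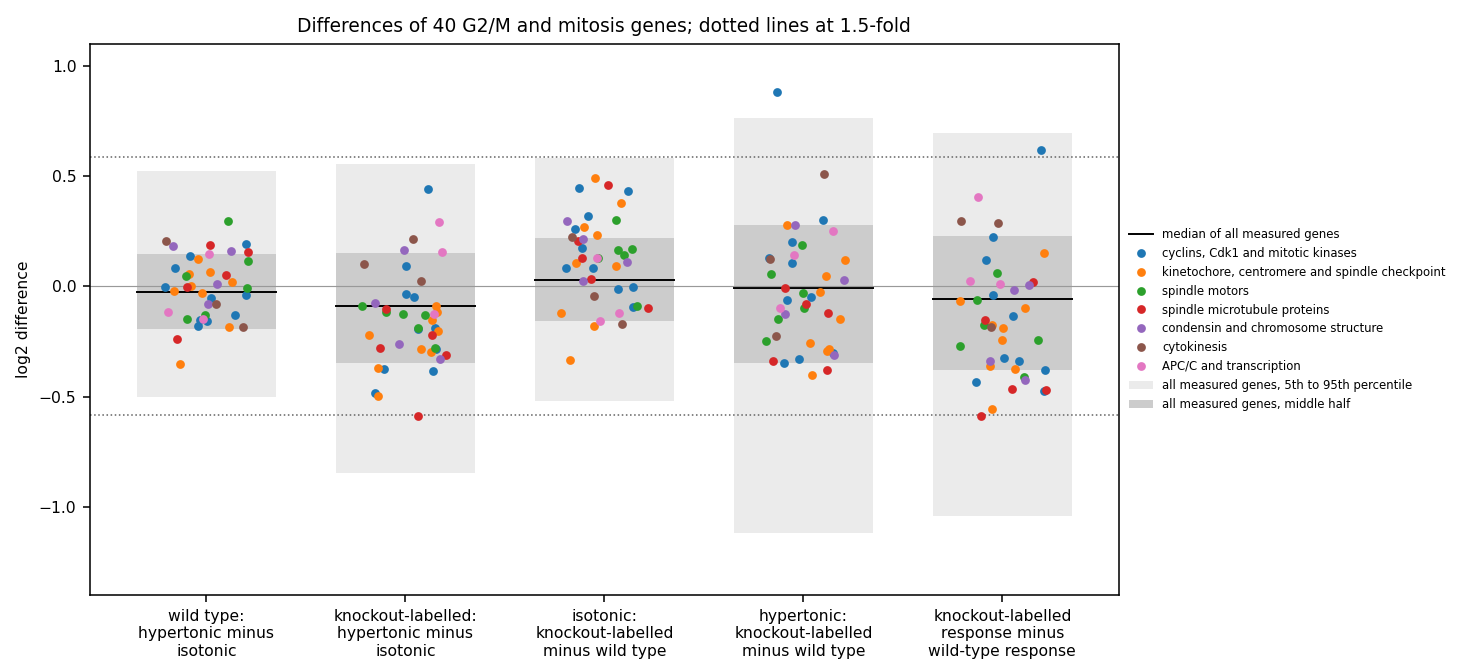
Log2 difference (y axis) of 40 G2/M and mitosis genes in 5 comparisons; each point is 1 gene, coloured by role, the grey boxes hold the middle part and the 5th to 95th percentile of all measured genes, black lines are their medians, and dotted lines mark 1.5-fold. Most points lie inside the boxes; the one above the dotted line in hypertonic medium is Nek2 (0.88).

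Cyclins, Cdk1 and the mitotic kinases differed among themselves. Ccna2, encoding cyclin A2, read 10.61, 10.45, 10.60 and 10.40. It was slightly lower in hypertonic medium in each genotype, by -0.16 and -0.19. Ccnb2, encoding cyclin B2, read 10.10, 10.29, 10.27 and 9.99 in the same order, so the genotypes differed in sign (0.19 and -0.28). Cdk1 read 9.94 and 10.02 on the wild-type arrays and 10.37 and 10.32 on the knockout-labelled arrays. Its 2 knockout-labelled signals were the higher ones, by 0.43 in isotonic and 0.30 in hypertonic medium.

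Cdc25c, the phosphatase gene that helps to activate CDK1, was highest on the knockout-labelled isotonic array. Its signals were 7.10, 7.06, 7.54 and 7.17. Plk1, encoding Polo-like kinase 1, read 9.61, 9.75, 9.61 and 9.42. Melk, encoding a kinase of proliferating cells, read 9.06, 9.01, 9.14 and 8.66, with only the knockout-labelled hypertonic array apart. Pbk, encoding another mitotic kinase, read 9.17, 9.17, 9.49 and 9.11. Aurka and Aurkb, encoding the Aurora kinases of the spindle poles and of the chromosomal passenger complex, stayed between -0.15 and 0.20 in every comparison of 2 arrays.

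Nek2 stood apart from the other kinases. This gene encodes a kinase that separates the centrosomes before the spindle forms. It read 9.13, 8.95, 9.39 and 9.83. Both knockout-labelled arrays lay above both wild-type arrays. Hypertonic minus isotonic was -0.18 in wild-type and 0.44 in knockout-labelled cells, a difference of responses of 0.62. Knockout-labelled minus wild type was 0.26 in isotonic and 0.88 in hypertonic medium, the widest difference of any member between 2 arrays.

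No kinetochore or checkpoint gene passed 1.5-fold between any 2 arrays, and the widest gap in this role was that of Bub1 (0.56). Cenpe, encoding the kinesin that moves chromosomes to the spindle equator, read 8.30, 8.36, 8.57 and 8.08, with a knockout-labelled response of -0.50. Ttk, encoding the checkpoint kinase MPS1, read 7.77, 7.78, 8.27 and 7.89. Its signal was flat in wild-type cells and highest on the knockout-labelled isotonic array. Bub1 and Bub1b, encoding further checkpoint proteins, had knockout-labelled responses of -0.28 and -0.30 and wild-type responses of -0.18 and 0.06.

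Ndc80, encoding the microtubule-binding arm of the kinetochore, differed by genotype rather than by medium. It read 8.40 and 8.38 on the wild-type arrays and 8.07 and 7.98 on the knockout-labelled arrays. The partner of its protein in that arm is encoded by Nuf2, which stayed between 8.83 and 8.98 on all 4 arrays. Cenpa, encoding the histone H3 variant of centromeres, read 9.32, 9.34, 9.20 and 9.04. Cenpf, encoding a large kinetochore protein, was highest on the knockout-labelled isotonic array (8.28) and between 8.01 and 8.06 on the others.

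Kif20a, described above, had the highest wild-type response of the spindle motors (0.29) and a knockout-labelled response of -0.12. The other 5, Kif11, Kif20b, Kif23, Kif2c and Kif4, had wild-type responses between -0.15 and 0.12 and knockout-labelled responses between -0.28 and -0.09. Kif11, whose product pushes the spindle poles apart, read 9.29, 9.34, 9.43 and 9.31. Kif2c, encoding a kinesin that takes microtubules apart, read 9.41, 9.52, 9.71 and 9.58. Kif4, encoding a chromosome-bound kinesin, read 8.31, 8.31, 8.48 and 8.21.

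Among spindle microtubule proteins Hmmr had the lowest knockout-labelled response of all members. Hmmr, encoding a hyaluronan receptor that also binds the spindle, read 8.04 and 8.04 on the wild-type arrays and, on the knockout-labelled arrays, 8.25 in isotonic and 7.66 in hypertonic medium. Its difference of -0.59 sat at the 1.5-fold limit and no longer reached it after quantile normalization (-0.48), cyclic loess (-0.49) or centring (-0.50). Nusap1, encoding a protein that bundles spindle microtubules, read 7.40, 7.59, 7.87 and 7.58. Dlgap5, encoding a spindle assembly factor, read 8.87, 9.02, 8.99 and 8.68. Tpx2, whose product activates Aurora A on the spindle, stayed between 9.47 and 9.59. Prc1, encoding the bundler of midzone microtubules, was lower in hypertonic medium in each genotype, by -0.24 and -0.22.

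Condensin and chromosome genes differed among themselves. Ncaph, encoding a condensin subunit, was higher in hypertonic medium in each genotype, with signals of 8.61 and 8.79 in wild-type and 8.90 and 9.07 in knockout-labelled cells. Ncapg, encoding another subunit of the same complex, stayed between 9.32 and 9.42. Top2a read 10.37 and 10.04 and Mki67 9.66 and 9.40 on the knockout-labelled arrays, responses of -0.33 and -0.26. Top2a was the 1 member with a second probe set, which lay below the dim limit on all 4 arrays. Averaged with it, Top2a would read 0.07 in place of -0.13 for knockout-labelled minus wild type in hypertonic medium.

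Cytokinesis genes and Foxm1 did not share the downward lean. Ect2, encoding the exchange factor that starts the cleavage furrow, read 9.77, 9.69, 9.60 and 9.82. Anln, encoding the furrow protein anillin, read 9.89, 9.71, 10.11 and 10.22, with both knockout-labelled arrays above both wild-type arrays. Racgap1, whose product works with ECT2, was highest in wild-type hypertonic cells (10.62) and between 10.37 and 10.41 elsewhere. Foxm1, encoding a transcription factor of G2/M genes, read 8.23, 8.12, 8.08 and 8.37, a knockout-labelled response of 0.29. Cdc20, encoding the APC/C activator, was higher in hypertonic medium by 0.15 and 0.16. Ube2c, encoding the ubiquitin-conjugating enzyme of the APC/C, read 7.57, 7.42, 7.45 and 7.33.

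The responses of the genotypes shared no array and were set against each other. Of 40 members, 16 were above 0 in wild-type and below 0 in knockout-labelled cells, 16 were below 0 in both, 5 were below and then above 0, and 3 were above 0 in both. In the same order the shares of all 10542 genes were 27.3%, 32.6%, 21.0% and 18.9%. Pearson's r across the 40 genes was -0.14 and Spearman's rho -0.12, as a description over genes read on the same arrays; across the 10542 genes they were -0.02 and 0.01. The knockout-labelled minus the wild-type response had a median of -0.17, with 28 of 40 below 0, next to a median of -0.06 and 55.5% below 0 over all 10542 measured genes. Nek2 was the 1 member at least 1.5-fold positive (2.50%, background 7.76%) and Hmmr the 1 at least 1.5-fold negative (background 15.4%). No member passed 2-fold, beside 1.41% positive and 5.53% negative of all measured genes. Hmmr did not reach 1.5-fold here after quantile normalization (-0.52), cyclic loess (-0.54) or centring (-0.53). Quantile normalization also moved the members' median to -0.11, with 25 of 40 below 0, and the share of positive genes among all calls at 1.5-fold from 33.5% to 43.7%.

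**Figure D4:**
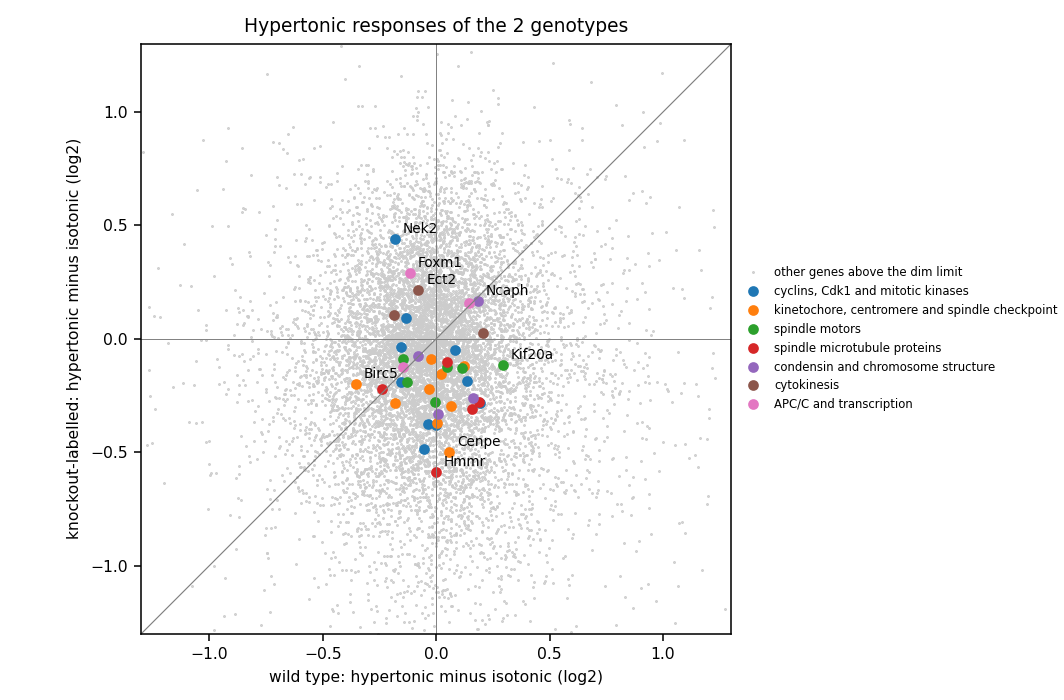
Hypertonic minus isotonic log2 difference in wild-type (x axis) and knockout-labelled cells (y axis) for 40 G2/M and mitosis genes, coloured by role, over other genes above the dim limit (grey; genes outside the axes are not drawn). The members form a narrow column near 0 on the x axis, with 32 of 40 below 0 on the y axis; Nek2 (0.44) and Hmmr (-0.59) are the ends.

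In isotonic medium the knockout-labelled cells had slightly higher mitotic signals. The median of knockout-labelled minus wild type was 0.13, a ratio of 1.09, with 28 of 40 members above 0, and over all 10191 measured genes the median was 0.03, with 54.8% above 0. The SD between probe sets was 0.19 here, and 15 members (37.5%) differed by more, next to 50.6% of all measured genes. After cyclic loess the members' median was 0.08. With the knockout-labelled arrays exchanged it was -0.04, with 23 of 40 below 0. No member was 1.5-fold higher (background 4.92%) or lower (background 3.87%), nor 2-fold (backgrounds 1.59% and 1.28%). The widest were Ttk (0.49), Nusap1 (0.46), Cdc25c (0.44) and Cdk1 (0.43) upward and Ndc80 (-0.33) downward. In each of the 4 upward genes the knockout-labelled isotonic array was the highest of the 4 arrays.

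In hypertonic medium the genotypes did not differ in a common direction. The median of knockout-labelled minus wild type was -0.05, with 16 members above 0 and 24 below, and -0.01 over all 10374 measured genes. With the knockout-labelled arrays exchanged the members' median was 0.12. Nek2 was the 1 member at least 1.5-fold higher (2.50%, background 8.72%) and none was 1.5-fold lower (background 15.1%) or past 2-fold (2.57% higher and 6.43% lower). After Nek2 came Anln (0.51) and Cdk1 (0.30), and the lowest were Ndc80 (-0.40) and Hmmr (-0.38). The knockout-labelled hypertonic array gave the lowest of 4 signals for 20 of 40 members (37.8% of the 10542 genes) and the knockout-labelled isotonic array the highest for 18 (28.7% of the 10542 genes). These comparisons share arrays with the responses above, so the signs of the differences are tied to each other.

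A CHR in the promoter window did not sort the members by response. In knockout-labelled cells the median response was -0.15 for the 25 measured members with a CHR (range -0.59 to 0.22) and -0.20 for the 7 with a window but no CHR (range -0.50 to 0.44), and the ranges overlapped. In wild-type cells the medians were -0.00 and 0.06.

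The wider mitotic machinery was read from a list of 87 other genes, of which 86 were measured. In wild-type cells their median response was -0.07, and 3 were 1.5-fold lower and none higher (3.49% lower, background 3.30%). The lowest were Mybl2 (-0.73), encoding the MuvB partner B-Myb, and Kif14 (-0.66), a cytokinesis kinesin gene. In knockout-labelled cells the median was -0.17, the same as that of the members to 2 decimals, and 7 were 1.5-fold lower and none higher (8.14% lower, background 12.0%). At 2-fold, 2 genes were lower there (2.33%, background 3.08%), Cenpm (-1.25) and Cenpk (-1.03). These shares lie near or below those of all measured genes. The other 5 at 1.5-fold were Cenpp (-0.80), the mitotic kinesin gene Kif15 (-0.77), the checkpoint gene Zwilch (-0.77), Kif24 (-0.76) and Trip13 (-0.63), of which Kif15, Zwilch, Kif24 and Trip13 are named after their values were seen. Upward the furthest were Depdc1b (0.44), Ska3 (0.42), encoding an outer kinetochore protein, and Gtse1 (0.40). Depdc1b and Gtse1 were also 1.5-fold higher than in wild-type cells in hypertonic medium (0.76 and 0.73), next to Mastl (0.61), encoding the Greatwall kinase. These 3 were 3.49% of the 86, below the background of 8.72%. In the same comparison 6 genes of the list were 1.5-fold lower (6.98%, background 15.1%).

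Of the 7 genes 1.5-fold lower in the knockout-labelled response, 3 encode parts of the inner kinetochore, as do 13 of the 86. This protein network sits on CENP-A chromatin all through the cycle. Cenpm read 7.95, 7.73, 7.61 and 6.35. Cenpk, whose product sits in the same subcomplex, read 7.34, 7.42, 7.31 and 6.28. Cenpp, of another subcomplex, read 6.83, 7.34, 7.0 and 6.20, with responses of 0.51 in wild-type and -0.80 in knockout-labelled cells. In these 3 genes the knockout-labelled hypertonic array was the lowest, and was 2-fold below wild type in the same medium (-1.38, -1.14 and -1.14). At 2-fold they were 3.49% of the 86 other mitosis genes, against 6.43% of all measured genes. Cenpk no longer passed 2-fold in the knockout-labelled response after quantile normalization (-0.88), cyclic loess (-0.96) or centring (-0.95).

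The other inner kinetochore genes, set beside these after their values were seen, were less far apart. Of 13 in all, 3 were 1.5-fold lower (background 12.0%) and 12 lay below 0 (60.1% of all measured genes) in the knockout-labelled response. Their median was -0.35, next to -0.09 over all measured genes. The 3 are Cenpm, Cenpk and Cenpp, already picked by their values, so that count was set by the choice of genes. The median and the 12 below 0 include these 3, so they also depend on that choice. All 86 other mitosis genes had a median of -0.17 in that response. In the wild-type response 7 of the 13 lay below 0 (53.9% of all measured genes), with a median of -0.09. Cenph and Cenpi, in the same subcomplex as Cenpm and Cenpk, had knockout-labelled responses of 0.00 and -0.08. Cenpw, which pairs with CENP-T, read 5.73, 5.99, 6.35 and 5.81. The member Cenpa, on which the network sits, had a response of -0.15 there.

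**Figure D5:**
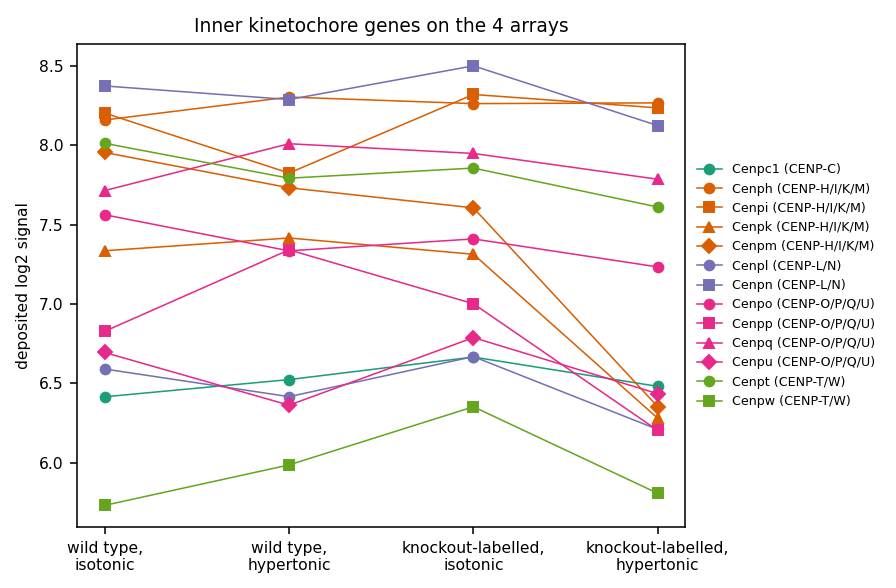
Deposited log2 signal (y axis) of 13 inner kinetochore genes on the 4 arrays (x axis), coloured by subcomplex, with lines joining the points of a gene and no spread since each point is 1 array. Cenpm, Cenpk and Cenpp stand at 6.35, 6.28 and 6.20 on the knockout-labelled hypertonic array, and Cenph and Cenpi at 8.27 and 8.24.

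Genes earlier in the cycle and its brakes give the surrounding picture. The 31 measured G1/S and DNA replication genes had medians of -0.03 in the wild-type and 0.05 in the knockout-labelled response. At 1.5-fold none passed in the first, and in the second 2 were lower (6.45%, background 12.0%), Tk1 (-0.78) and Gins2 (-0.67), named after their values were seen, and none higher. None was past 2-fold. In the second, 15 of 31 lay below 0, next to 32 of 40 G2/M and mitosis genes; the lists were not tested against each other. Of 23 brake and checkpoint genes listed, Cdkn1a and Trp53 had no probe set assigned to 1 gene. Of the 21 measured, 3 were 1.5-fold higher (14.3%, background 4.12%) and 1 lower (4.76%, background 3.30%) in wild-type cells. The 3 were Rb1, Cdkn1c (0.68) and Rbl2 (0.62). Cdkn1c and Rbl2, named after their values were seen, had knockout-labelled responses of 0.75 and -0.01. Rb1, encoding the retinoblastoma protein, read 6.82, 7.82, 7.66 and 7.20, so it differed by 1.0 in wild-type and -0.45 in knockout-labelled cells. In knockout-labelled cells 1 was 1.5-fold higher (4.76%, background 4.28%) and 5 lower (23.8%, background 12.0%), with the checkpoint kinase gene Atr (-1.27) and the stress gene Gadd45g (-1.05) past 2-fold. Gadd45g no longer passed 2-fold after quantile normalization (-0.90), cyclic loess (-0.96) or centring (-0.97). Cdkn2b, encoding the CDK4 and CDK6 inhibitor p15, read 8.93, 9.17, 8.59 and 7.62, and was 2-fold lower than wild type in hypertonic medium (-1.55). Gadd45g was lower in hypertonic medium in wild-type cells too (-0.93).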

How the data were processed

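Total RNA from pools of 4 samples was read on Affymetrix Mouse Gene 1.0 ST arrays, 1 array for each of 4 conditions. The authors deposited a value for each probe set on each array, read as a log2 signal because of its range of 1.57 to 13.9 and medians of 4.87 to 4.91. Per the submitters' processing notes, MAS5 was used; version, background correction and normalization were not given in the sources used here.

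Of 35557 probe sets, 21789 had 1 gene symbol in the platform annotation, 1621 had several and 12147 had none. The 21789 covered 19938 genes, and the probe set with the highest mean stood for a gene that had several. To count as measured, a gene had to pass the dim limit, the median of the 1-gene probe sets (5.38 to 5.44), on at least 1 array compared. Differences were taken over all measured genes. With 1 array per condition no test could be run, and limits of 1.5-fold and 2-fold were used to count. The spread between the probe sets of genes with 2 of them served as a gauge of measurement error.

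The members, lists and rules were chosen with earlier results of these data known. All members could be named, those of the other lists when past 2-fold, and in the list of other mitosis genes also the 3 highest and 3 lowest of a comparison; other genes are named after their values were seen. Alternatives were quantile and cyclic loess normalization, centring, other dim limits, the mean of probe sets, a 2-fold limit, and an exchange of the knockout-labelled arrays. Counting steps were tested on simulated data. Python 3.11.15, pandas 2.3.3, numpy 2.4.6, scipy 1.17.1, matplotlib 3.10.9, R 4.3.3 and limma 3.58.1 were used.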

Additional observations from a re-analysis of the deposited data

Results flagged for a closer look

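Of the measured genes of the 4 lists (40, 86, 31 and 21), 12 had hypertonic responses of opposite sign in the 2 genotypes and at least 1.5-fold apart. Over all 10542 genes, 7.76% had a difference of responses at least 1.5-fold positive and 15.4% negative, whatever the signs of the responses. Whatever the signs, the 4 lists in that order had 1 positive and 1 negative, 0 and 6, 1 and 1, and 1 and 4. As shares these lay below those of all genes, except the negative share of the 21 brake and checkpoint genes. The share of all genes whose responses also had opposite signs was not computed. The count of 12 therefore has no background and cannot be called many or few. Each response rests on 1 array per medium, so the difference was not tested. The values below are the knockout-labelled minus the wild-type response on the log2 scale. Among the G2/M and mitosis genes this was Nek2 alone (0.62). In the list of other mitosis genes it was the inner kinetochore genes Cenpp (-1.31), Cenpk (-1.11) and Cenpw (-0.80), the checkpoint gene Zwilch (-0.89) and the outer kinetochore gene Spc24 (-0.64). Among brakes and checkpoint genes it was Rb1 (-1.45), Cdkn2b (-1.20) and Rbl2 (-0.63), and in the other direction Gadd45a (0.93). Among G1/S and DNA replication genes it was Tk1 (-0.83) and, in the other direction, Ung (0.82). By the rule of opposite signs, a negative value can only belong to a gene above 0 in wild-type and below 0 in knockout-labelled cells. No group had the 4 samples that a search for outlying samples needs.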

How the results depend on the processing

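Of 112 recomputed medians and counts of members, 84 were scored as kept and 28 as moved. A kept median had the same sign and stayed within 1.5 times. A kept count was equal or within 1.5 times, so a 0 that stayed 0 was kept. A 2-fold limit cannot raise a count of 0, and the exchange turns the sign of the knockout-labelled response by construction. The 2 totals are therefore no measure of stability. The median of the wild-type response, -0.00, became 0.020 after quantile normalization, 0.041 after cyclic loess, 0.023 after centring and -0.0044 with the mean of probe sets, so it has no settled sign. That of the knockout-labelled response shrank from -0.17 to -0.082, -0.079 and -0.083 in the same order. The median of the difference of responses became -0.11 after quantile normalization, and that of the isotonic comparison 0.076 after cyclic loess. The 1 member 1.5-fold lower in the knockout-labelled response and in the difference of responses, Hmmr, left a count of 0 after quantile normalization, cyclic loess and centring and at 2-fold. At 2-fold the 1 member higher in hypertonic medium against wild type and in the difference of responses, Nek2, also left 0. With the knockout-labelled arrays exchanged, every median involving them turned its sign: 0.17 in the knockout-labelled response, -0.038 in isotonic and 0.12 in hypertonic medium against wild type, and 0.14 in the difference of responses. The counts then became 1 higher and 0 lower in the knockout-labelled response, 1 higher in isotonic and 0 higher in hypertonic medium, and 0 lower in the difference of responses. Of single named genes, 1808 recomputed differences, without the exchange and the 2-fold limit, moved by less than the SD between probe sets, though small ones could change sign. Much of this was fixed in advance. Other dim limits cannot move the difference of a gene, and the mean of probe sets moves only genes with several. Centring shifts all genes alike, by less than that SD. Only quantile and cyclic loess normalization could have moved most of these genes further. No paired analysis was possible because each condition has 1 array. Dim signal did not limit the members; the lack of replicate arrays did, since that SD (0.15 to 0.23) leaves out the spread between cultures.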
